A study of Mus musculus with 16 samples.

Results

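The 9 genes described here encode a choline transporter and 8 enzymes of the CDP-choline and CDP-ethanolamine routes of phospholipid synthesis, namely Slc44a1, Chka, Chkb, Pcyt1a, Chpt1, Cept1, Etnk1, Etnk2 and Pcyt2. They were chosen by name, and all 9 were found among the 24082 gene identifiers of the liver table and passed the filter on low values. Liver RNA of C57Bl6/J mice, in the study's feeding trials females aged 9 to 11 weeks, gave 16 libraries, 4 in each of 4 groups, with 1 mouse per library in the study's description. Pair control mice were pair-fed a Lieber-DeCarli liquid diet in which maltose dextrin replaced ethanol, with vehicle. Pair IMC mice received the pair diet with iodomethylcholine (IMC) at 0.06% wt/wt. EtOH control mice received the chronic ethanol diet, with ethanol raised stepwise to 6% vol/vol over 25 days in the study's methods, and vehicle. EtOH IMC mice received the ethanol diet with IMC. IMC is an inhibitor of the gut bacterial enzyme that splits choline into trimethylamine. The study notes that mice given both IMC and ethanol ate less and weighed less. A figure legend of the study also marks a difference in body weight between pair-fed mice with and without IMC. Intake and weight were not analysed here. Drug and intake therefore cannot be told apart in the EtOH IMC group, nor drug and body weight in either IMC group. The question was how the drug and the diet changed the liver transcriptome.

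Phosphatidylcholine and phosphatidylethanolamine are the main phospholipids of cell membranes, and liver cells also need phosphatidylcholine to secrete lipoproteins and bile. In the CDP-choline route choline is taken up, phosphorylated by a choline kinase, activated to CDP-choline by a cytidylyl transferase and joined to diacylglycerol. The CDP-ethanolamine route runs through the same 3 steps with its own kinases and cytidylyl transferase, and the liver can also make phosphatidylcholine by methylating phosphatidylethanolamine.

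Upstream sequences are shown for the pair of choline kinase genes and for the 2 genes that rose with IMC in ethanol-fed mice, since these are the members on which the comparisons below turn. Each is the 250 bases before a RefSeq gene start on GRCm38.p6, printed 5′ to 3′ on the gene's strand. Capitals mark the searched motifs on either strand: the GC box (GGGCGG), the E-box (CACGTG), the CCAAT box (CCAAT), the TATA box (TATAAA) and the core of a sterol response element (TCACNCCAC). Adjoining capitals are motifs that touch or overlap.
Chka, chr19:3851523-3851772, plus strand: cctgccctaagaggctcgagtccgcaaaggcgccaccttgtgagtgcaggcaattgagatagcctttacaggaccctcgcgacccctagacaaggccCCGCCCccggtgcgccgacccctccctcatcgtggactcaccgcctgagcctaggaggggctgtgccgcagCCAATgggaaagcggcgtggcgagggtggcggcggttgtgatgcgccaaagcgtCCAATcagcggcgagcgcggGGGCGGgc
Chkb, chr15:89429928-89430177, minus strand: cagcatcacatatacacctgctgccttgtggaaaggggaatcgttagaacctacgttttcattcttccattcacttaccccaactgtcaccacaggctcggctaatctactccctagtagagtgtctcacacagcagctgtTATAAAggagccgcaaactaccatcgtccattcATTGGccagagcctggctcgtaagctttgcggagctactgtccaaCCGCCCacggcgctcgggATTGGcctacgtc
Cept1, chr3:106547803-106548052, minus strand: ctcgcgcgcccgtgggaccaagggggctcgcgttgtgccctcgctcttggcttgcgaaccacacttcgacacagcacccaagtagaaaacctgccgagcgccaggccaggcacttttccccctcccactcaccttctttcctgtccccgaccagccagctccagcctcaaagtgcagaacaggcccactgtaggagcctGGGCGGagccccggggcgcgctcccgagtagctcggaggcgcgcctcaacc
Etnk1, chr6:143166980-143167229, plus strand: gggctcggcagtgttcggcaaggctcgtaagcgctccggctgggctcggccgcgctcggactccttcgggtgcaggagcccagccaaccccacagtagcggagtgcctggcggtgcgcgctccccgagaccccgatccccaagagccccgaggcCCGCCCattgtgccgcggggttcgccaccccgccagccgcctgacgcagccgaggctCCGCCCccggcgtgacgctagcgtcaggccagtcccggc
RefSeq entries matched 8 of the 9 members, and Pcyt2 was not matched. The 8 genes had 13 windows, because Cept1 and Pcyt1a have 3 gene starts each and Slc44a1 has 2, and for Cept1 only 1 of its 3 is printed. A GC box was present in 11 of the 13 windows, compared with 32.7% of 32851 RefSeq windows of the same length, and the windows without one were 1 of Cept1 and 1 of Pcyt1a. Some windows of Cept1, Pcyt1a and Slc44a1 overlap within the gene, so the same box can count more than once. By gene, 8 of 8 held a GC box in any window, compared with 35.4% of 27025 genes. The windows of both choline kinase genes held CCAAT boxes, as did that of Chpt1, compared with 33.8% of windows. Chkb alone held a TATA box, found in 12.4% of windows. Of the 3 windows of Pcyt1a 2 held the sterol response element core, but these 2 overlap and the core is the same site in both. The core was found in 1.05% of windows and 1.22% of genes. No E-box was found in the 13 windows, and 6.02% of all windows held one. Of the 4 windows printed, that of Chkb was 52.4% GC, equal to the median of 52.4% over all windows, while those of Chka, Cept1 and Etnk1 were 68.0%, 66.8% and 74.8% GC. These matches are descriptions of the letters in these windows.

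On GRCm38 in the GENCODE vM21 annotation all 9 are protein-coding genes, read here over their exons. The plus strand holds Chka (ENSMUSG00000024843) at chr19:3851773-3894369, Pcyt1a (ENSMUSG00000005615) at chr16:32430921-32475070, Slc44a1 (ENSMUSG00000028412) at chr4:53440413-53622478, Etnk1 (ENSMUSG00000030275) at chr6:143167221-143232307 and Etnk2 (ENSMUSG00000070644) at chr1:133363572-133380336. The minus strand holds Chkb (ENSMUSG00000022617) at chr15:89426360-89429908, Chpt1 (ENSMUSG00000060002) at chr10:88452745-88504073, Cept1 (ENSMUSG00000040774) at chr3:106502260-106547802 and Pcyt2 (ENSMUSG00000025137) at chr11:120610087-120617936. Exons of Pcyt1a share 567 bases with Slc51a, those of Chpt1 share 660 with Sycp3 and those of Cept1 share 771 with Dennd2d, all on the opposite strand. Chkb shares 320 bases of exon with C730034F03Rik on the opposite strand. The library kit was directional, but the strand setting of the counting was not given in the sources used here, so the reads of these pairs are uncertain.

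Each library held between 9632659 and 12601199 reads on genes. Values below are normalized counts, that is, reads divided by 1 size factor per library set over all 16 libraries. Hepatocyte markers dominated every library, pancreas markers summed to at most 1.02, and the intestinal factor Cdx2 was at 0. The labels number the libraries 1 to 16. Numbers 1 to 8 are the Pair IMC and EtOH control mice and 9 to 16 are the Pair control and EtOH IMC mice, so in any comparison of 2 groups number and group cannot be told apart. The effects averaged over both diets or both treatments are balanced between numbers 1 to 8 and 9 to 16. All pair-fed libraries carry even numbers and all ethanol-fed libraries odd numbers. Diet and odd or even number therefore cannot be told apart, also in the averaged ethanol effects. The difference of the IMC effect between diets sets libraries 9 to 16 against libraries 1 to 8 as a whole. The labels do not call them a batch.

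Levels of different genes were compared as normalized count per kb of exon, over the joined GENCODE vM21 exons of each gene. The study used UCSC transcripts, so the order of the genes depends on this choice of length. Not divided by length, Chka averaged 760 normalized counts, Slc44a1 712 and Chkb 527, and Etnk1 averaged 1501 beside 1275 for Cept1. Pcyt2, the cytidylyl transferase of the ethanolamine route, was the most abundant member at 1246 per kb on average over 16 libraries, above 96.8% of the 12537 genes tested. Etnk2, an ethanolamine kinase of liver, followed at 724 per kb, above 94.6% of genes. Cept1, which joins diacylglycerol to either CDP-choline or CDP-ethanolamine, stood at 409 per kb, and Chpt1, which uses CDP-choline, stood at 243 per kb. Chkb stood at 172, Pcyt1a, the cytidylyl transferase that limits the rate of the choline route, at 139, and Etnk1 at 106 per kb. Slc44a1, a choline transporter of the cell surface and mitochondria, stood at 103 per kb, and Chka was lowest at 63.2 per kb. Most neighbours kept their order in nearly every library, with Pcyt2 above Etnk2 and Cept1 above Chpt1 in 16 of 16. Chkb was above Pcyt1a in 11 of 16 libraries, and Etnk1 was above Slc44a1 in 9 of 16. The order within these 2 pairs differed by diet or drug, so the totals over 16 libraries do not measure the spread between mice alone. Chkb was above Pcyt1a in every pair-fed library and in only some ethanol-fed ones. Etnk1 was above Slc44a1 in most libraries of IMC-treated mice and below it in most libraries of mice given vehicle.

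**Figure D1:**
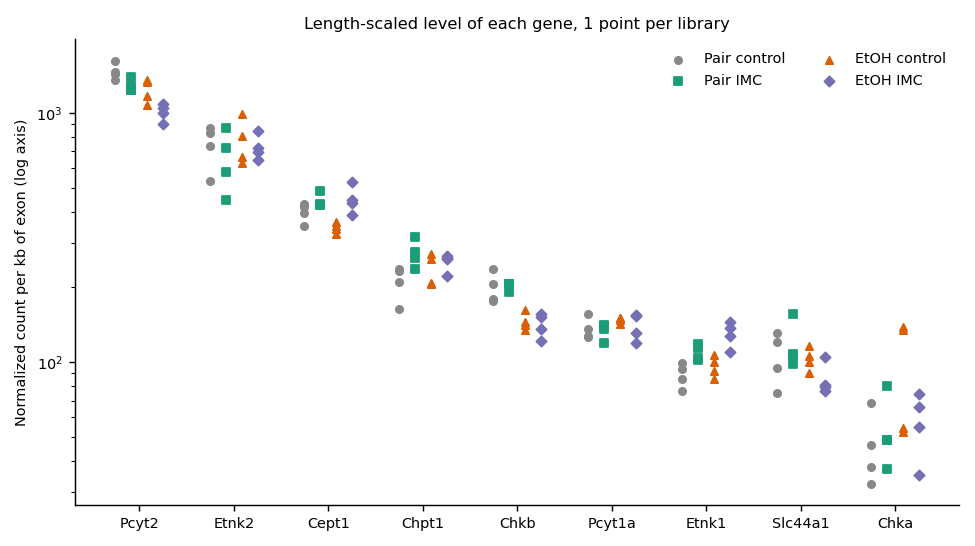
Normalized count per kb of exon (log axis) for the 9 genes, 1 point per library, coloured and shaped by group. The genes spanned from an average of 63.2 per kb for Chka to 1246 per kb for Pcyt2, and the points of Chkb and Pcyt1a and those of Etnk1 and Slc44a1 overlapped.

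Reads behind a single value ranged from 334 for Chka to 6917 for Pcyt2. Chka was the most variable member, with a coefficient of variation between 29.3% and 50.5% within groups. Etnk2 and Slc44a1 reached 27.9% and 23.6%. Pcyt1a and Chkb were the steadiest in single groups, at 2.61% for Pcyt1a in EtOH control and 3.60% for Chkb in Pair IMC.

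In the livers of ethanol-fed mice Etnk1 and Cept1 rose and Pcyt2 fell with IMC. These were 3 of the 9 members, where limma called 21.5% of the 12537 genes tested, 10.4% higher and 11.1% lower. In pair-fed mice IMC changed 0 of 9 members by limma, where 9.48% of genes were called, 4.32% higher and 5.17% lower. Unadjusted limma p was under 0.05 for 2 of the 9 in pair-fed mice, beside 3223 of the 12537 genes. There edgeR called 0 of 9, beside 9.33% of genes, and DESeq2 called 1, beside 11.8%. Averaged over both diets, 4 of 9 members were called, Etnk1, Cept1 and Chpt1 higher and Pcyt2 lower, beside 28.1% of all genes, 14.1% higher and 14% lower. The median log2 fold change of the 9 members was 0.15 in pair-fed and -0.072 in ethanol-fed mice, and that of all genes was -0.00092 and -0.0016. In whole liver, fewer cells of a type and less RNA per cell cannot be told apart.

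Etnk1, an ethanolamine kinase, had normalized counts of 1414, 1301, 1511 and 1207 in EtOH control libraries 1, 3, 5 and 7. In EtOH IMC libraries 9, 11, 13 and 15 it had 2057, 1806, 1940.1 and 1552. The lowest IMC-treated mouse was above the highest control, a separation seen for 25.3% of genes in this comparison. The log2 fold change was 0.43 (95% confidence interval 0.22 to 0.65, limma adjusted p = 0.00618), a 1.35-fold rise. In pair-fed mice the counts were 1402, 1332, 1214 and 1082 in Pair control 10, 12, 14 and 16. In Pair IMC 2, 4, 6 and 8 they were 1469, 1673, 1616 and 1445. Here too the groups did not overlap, as for 14.3% of genes, and the log2 fold change of 0.31 (0.092 to 0.52) missed the threshold (limma adjusted p = 0.0660). It passed without EtOH IMC 15 (limma adjusted p = 0.0462), while leaving out other single libraries gave limma adjusted p up to 0.175. Averaged over both diets Etnk1 rose by 0.37 on the log2 scale (0.22 to 0.52, limma adjusted p = 0.00112). The second ethanolamine kinase, Etnk2, spanned 2937 to 3873 in EtOH IMC and 2857 to 4524 in EtOH control, with a log2 fold change of -0.072 (-0.47 to 0.33).

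Cept1 had 1065, 1140.4, 1013 and 1098 in EtOH control 1, 3, 5 and 7 and 1208, 1643, 1356 and 1397 in EtOH IMC 9, 11, 13 and 15. All IMC-treated mice were above all ethanol-fed controls. The log2 fold change was 0.37 (0.18 to 0.56, limma adjusted p = 0.00854), or 1.29-fold. In pair-fed mice Pair control spanned 1093 to 1335 and Pair IMC spanned 1327 to 1519, and the log2 fold change was 0.15 (-0.039 to 0.35, limma adjusted p = 0.312). Chpt1, the phosphotransferase specific to choline, had 1973, 1751, 1931 and 1365 in Pair control 10, 12, 14 and 16 and 1972, 2647, 2305 and 2179 in Pair IMC 2, 4, 6 and 8. These groups overlapped only in that Pair control 10 lay just above Pair IMC 2, and the log2 fold change was 0.38 (0.12 to 0.64, limma adjusted p = 0.0629). In ethanol-fed mice the log2 fold change of Chpt1 was 0.11 (-0.16 to 0.37). Its averaged rise of 0.24 on the log2 scale was close to the threshold (limma adjusted p = 0.0480). The call was lost without any 1 of 10 libraries, namely Pair control 12 or 16, Pair IMC 4, 6 or 8, EtOH control 1 or 5, or EtOH IMC 9, 11 or 13, with limma adjusted p up to 0.103.

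Pcyt2 had 5061, 5797, 4669 and 5902 in EtOH control 1, 3, 5 and 7 and 3904, 4691, 4352 and 4556 in EtOH IMC 9, 11, 13 and 15. The groups overlapped only in that EtOH IMC 11 lay just above EtOH control 5. The log2 fold change was -0.29 (-0.48 to -0.094, limma adjusted p = 0.0335), an 18.1% fall. It no longer passed without EtOH control 3 or 7 (limma adjusted p = 0.0973 and 0.107) or without EtOH IMC 9 or 13 (limma adjusted p = 0.0937 and 0.0674), nor when only the libraries of the comparison were fitted (limma adjusted p = 0.0596), nor after quantile normalization, where it was -0.14 (limma adjusted p = 0.210). In pair-fed mice the log2 fold change was -0.19 (-0.38 to 0.0062, limma adjusted p = 0.210). Averaged over both diets Pcyt2 fell by 0.24 on the log2 scale (limma adjusted p = 0.0115).

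The entry steps of the choline route were not called for IMC. Slc44a1 had log2 fold changes of 0.16 (-0.18 to 0.51) in pair-fed and -0.27 (-0.62 to 0.073) in ethanol-fed mice. Chka had 0.21 (-0.49 to 0.91) and -0.62 (-1.32 to 0.076). Chkb had 0.031 (-0.18 to 0.24) and -0.046 (-0.26 to 0.17), and Pcyt1a had -0.020 (-0.22 to 0.18) and -0.088 (-0.28 to 0.11). The interval of Chka in pair-fed mice ran from 0.714-fold to 1.88-fold, so changes of the size called for Etnk1 lay inside it.

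The test of whether the IMC effect differed between diets called 0 of 9 members with limma, edgeR and DESeq2, and unadjusted p was under 0.05 for 0 of 9. Over all 12537 genes 1.11% were called with limma, 0.933% with edgeR and 2.70% with DESeq2, and 1913 had an unadjusted limma p under 0.05. The largest point estimate among the members was that of Chka, -0.83 (-1.82 to 0.15, limma adjusted p = 0.411), followed by Slc44a1 at -0.43 (-0.92 to 0.055). For Etnk1 and Cept1, called in ethanol-fed and not in pair-fed mice, the differences were 0.13 (-0.18 to 0.43) and 0.22 (-0.057 to 0.49), so a diet-dependent IMC effect was not shown for either gene. In this contrast such an effect and a difference between libraries 1 to 8 and 9 to 16 cannot be told apart.

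**Figure D2:**
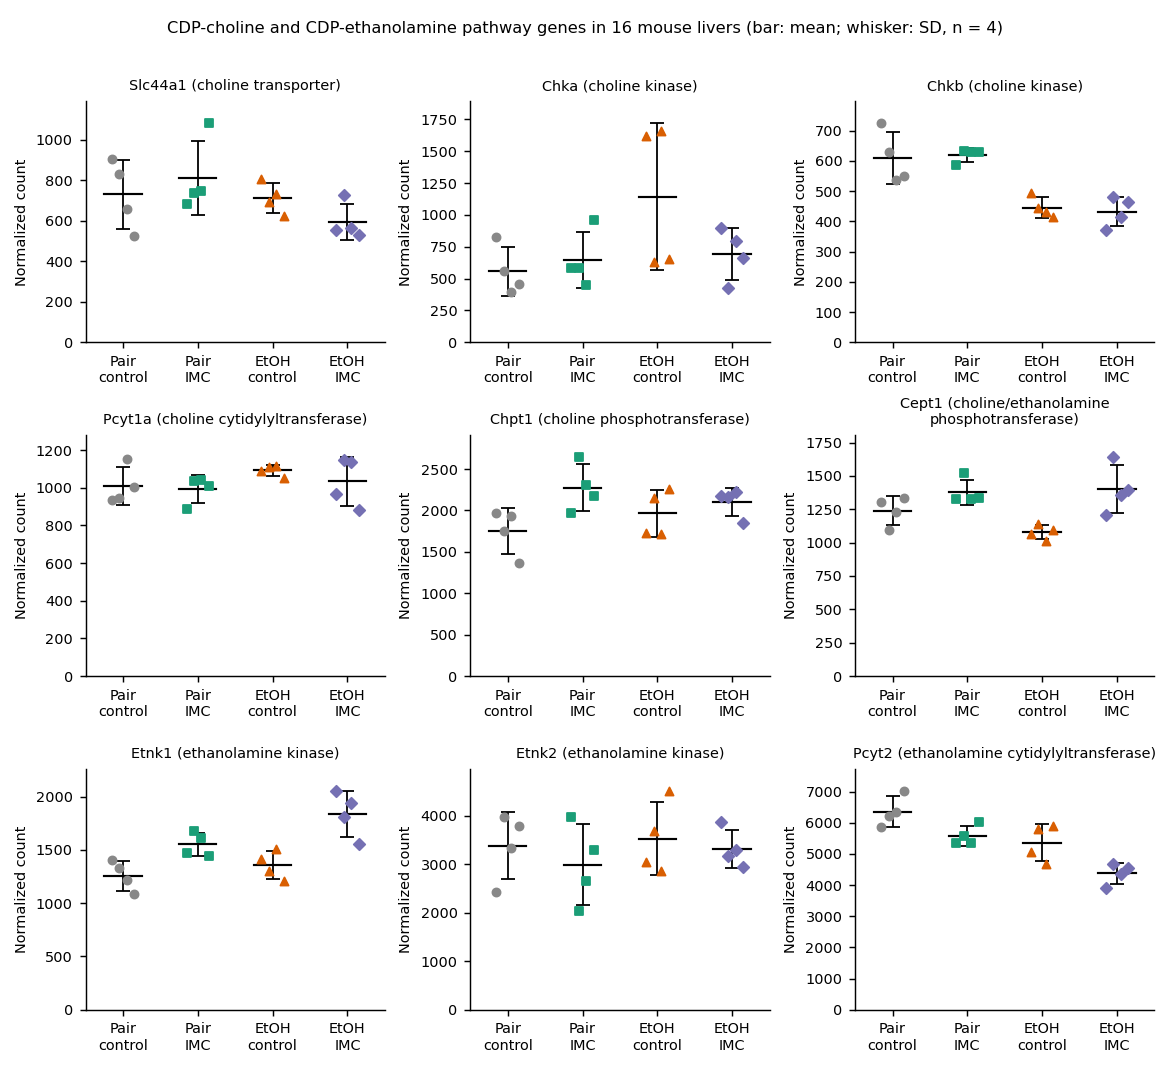
Normalized counts of the 9 genes in each of the 16 libraries by group, in number order within a group, with the group mean (bar) and SD (whisker, n = 4) on axes that start at 0. Chkb was lower in both ethanol-fed groups, Etnk1 was highest and Pcyt2 lowest in EtOH IMC, and Chka in EtOH control held values of 1622 and 1661 beside 631 and 656.

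Chkb, the beta form of choline kinase, fell with ethanol both without and with IMC, and Pcyt2 fell with ethanol in the IMC-treated mice. In control mice limma called 1 of the 9 members for ethanol, beside 11.9% of all genes, 6.33% higher and 5.54% lower. In IMC-treated mice it called 2 of 9, beside 16.4% of all genes, 7.86% higher and 8.57% lower. Averaged over both treatments it called 2 of 9, beside 26.1%, 12.9% higher and 13.1% lower. No member was called higher. The median log2 fold change of the members was 0.060 in control and 0.018 in IMC-treated mice, and that of all genes was -0.0072 and 0.0034.

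Chkb had 725, 630.4, 536 and 550.1 in Pair control 10, 12, 14 and 16. In EtOH control 1, 3, 5 and 7 it had 494, 443, 432 and 413. Every ethanol-fed mouse was below every pair-fed mouse, a separation seen for 19.0% of genes. The log2 fold change was -0.45 (-0.66 to -0.23, limma adjusted p = 0.00979), so that Chkb fell by 26.5%. Under IMC the counts were 586, 631, 629.7 and 630.3 in Pair IMC 2, 4, 6 and 8 and 373, 479, 416 and 463 in EtOH IMC 9, 11, 13 and 15. The groups were again apart, as for 19.2% of genes, with a log2 fold change of -0.52 (-0.74 to -0.31, limma adjusted p = 0.00244), and Chkb fell by 30.4%. Averaged over both treatments Chkb fell by 0.48 on the log2 scale (limma adjusted p = 0.000157). On the deposited scale, on which values of all genes stand 0.19 higher for ethanol, the fall in control mice was -0.26 (limma adjusted p = 0.0743). Chkb shares 1552 bases of exon with the gene model Gm44502 on the same strand, and the table listed the identifier of Chkb under both symbols with identical values, so their reads could not be told apart.

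Chka, the alpha form of choline kinase, had 824, 559, 391 and 455 in Pair control 10, 12, 14 and 16. In EtOH control 1, 3, 5 and 7 it had 1622, 631, 1661 and 656. EtOH control 1 and 5 were far above the other mice of both groups, while EtOH control 3 and 7 lay within the pair-fed range. The log2 fold change was 0.94 (0.24 to 1.64), with a limma adjusted p of 0.0722. It passed the threshold with edgeR (adjusted p = 0.0480) and DESeq2 (adjusted p = 0.0497), and in limma without Pair control 10, EtOH control 3 or EtOH control 7 (adjusted p = 0.0445, 0.0402 and 0.0474). Leaving out each library in turn, the value ran from 0.71 to 1.17, with limma adjusted p up to 0.220. In IMC-treated mice Chka had 585, 585, 449 and 964 without ethanol and 895, 424, 792 and 662 with it, and these groups overlapped throughout. The log2 fold change there was 0.11 (-0.59 to 0.80, limma adjusted p = 0.863).

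Pcyt2 had 5859.9, 6203, 6334 and 7034 in Pair control 10, 12, 14 and 16, and 5352, 5573, 5336 and 6035 in Pair IMC 2, 4, 6 and 8. Of the ethanol-fed mice, only the EtOH IMC group lay below its pair-fed counterpart without overlap, and EtOH control 7 reached into the pair-fed range. The ethanol log2 fold change was -0.25 (-0.45 to -0.056, limma adjusted p = 0.0852) in control and -0.35 (-0.55 to -0.16, limma adjusted p = 0.0158) in IMC-treated mice, and -0.30 averaged over both (limma adjusted p = 0.00288). The value in control mice passed with DESeq2 (-0.25, adjusted p = 0.0479) and after quantile normalization (-0.32, limma adjusted p = 0.0121). On the deposited scale the value in IMC-treated mice was -0.16 (limma adjusted p = 0.206) and the averaged value was -0.11 (limma adjusted p = 0.187). The group means of Pcyt2 stepped down from 6358 ± 493 in Pair control and 5574 ± 326 in Pair IMC to 5357 ± 592 in EtOH control and 4375 ± 344 in EtOH IMC (SD, n = 4 each).

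Slc44a1 had a log2 fold change for ethanol of -0.0075 (-0.35 to 0.34) in control mice and -0.44 (-0.78 to -0.095, limma adjusted p = 0.0750) in IMC-treated mice. In the latter it spanned 682 to 1082 without and 532 to 725 with ethanol. It passed the threshold without Pair control 16 (limma adjusted p = 0.0425) or EtOH IMC 11 (limma adjusted p = 0.0371). Leaving out other single libraries gave limma adjusted p up to 0.233. Etnk1 had ethanol effects of 0.11 (-0.10 to 0.33) and 0.24 (0.026 to 0.46, limma adjusted p = 0.117). The second of these passed without EtOH IMC 15 (limma adjusted p = 0.0494), and other single omissions gave limma adjusted p up to 0.277. It also passed on the deposited scale (limma adjusted p = 0.00511) and after quantile normalization (limma adjusted p = 0.0447). So it did with each library's trend with exon length and GC removed, a step chosen after seeing the data (limma adjusted p = 0.00327). The averaged ethanol effects of Slc44a1 and Etnk1 were -0.22 and 0.18 (limma adjusted p = 0.167 and 0.0809). They passed without Pair control 16 (adjusted p = 0.0456) and without EtOH IMC 15 (adjusted p = 0.0308) respectively. Other single omissions gave limma adjusted p up to 0.319 for Slc44a1 and 0.160 for Etnk1. The averaged effect of Etnk1 also passed after quantile normalization (limma adjusted p = 0.0349) and with the length and GC trend removed (limma adjusted p = 0.00557). It passed too with edgeR without library 15 (adjusted p = 0.0316). Cept1 had -0.20 (-0.39 to -0.0051, limma adjusted p = 0.169) and 0.018 (-0.17 to 0.21). Pcyt1a, which spanned 882 to 1152 over all 16 libraries, had 0.12 (-0.076 to 0.32) and 0.052 (-0.14 to 0.25). Chpt1 had 0.17 (-0.098 to 0.43) and -0.11 (-0.37 to 0.15), and Etnk2 had 0.060 (-0.34 to 0.46) and 0.19 (-0.22 to 0.59).

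**Figure D3:**
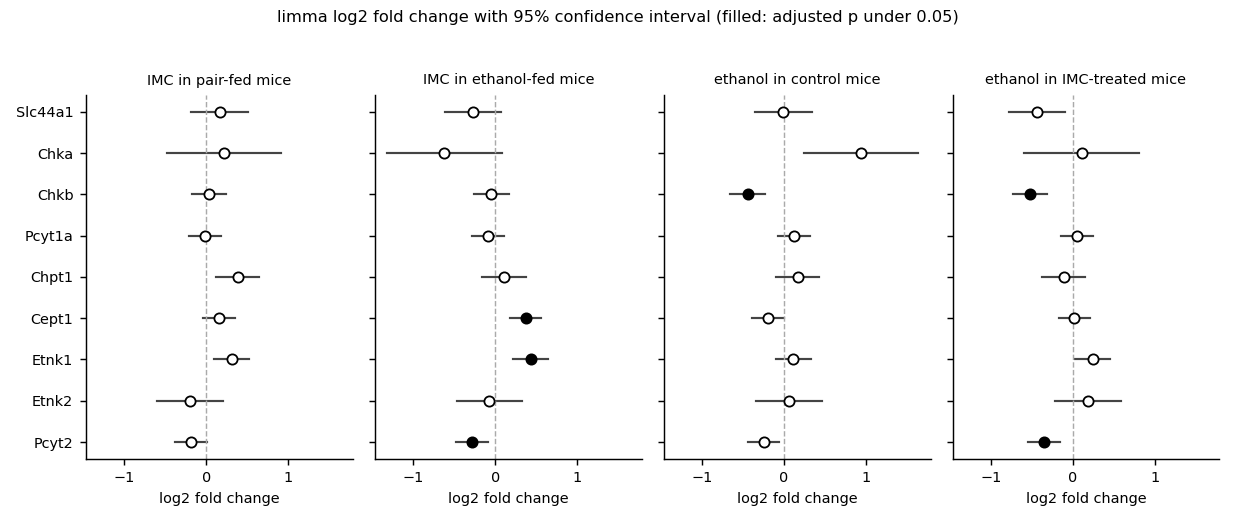
limma log2 fold change (x axis) of each of the 9 genes for IMC in pair-fed and ethanol-fed mice and for ethanol in control and IMC-treated mice. Points are estimates, lines are 95% confidence intervals, and filled points have an adjusted p under 0.05. Etnk1 (0.43) and Cept1 (0.37) were filled on the higher side and Pcyt2 (-0.29) on the lower side for IMC in ethanol-fed mice, and Chkb was filled on the lower side in both ethanol comparisons.

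Markers of other liver cells also moved with ethanol. Beside the counts below, limma called 11.9% of all genes for ethanol in control mice and 16.4% for ethanol in IMC-treated mice. For IMC it called 21.5% in ethanol-fed and 9.48% in pair-fed mice. Summed stellate cell markers, led by Dcn and Reln, spanned 4009 to 4671 in EtOH control. Their other ranges were 2754 to 3750.3 (Pair control), 2790.3 to 3441 (Pair IMC) and 2585 to 3484 (EtOH IMC), and of the 6 genes 2 were called higher for ethanol in control mice, 2 higher and 1 lower for ethanol in IMC-treated mice, and 2 lower for IMC in ethanol-fed mice. Summed hepatocyte markers, led by Alb and Cps1, spanned 1051960.0 to 1715130.0 (Pair control), 1542550.0 to 1666890.0 (Pair IMC), 976807 to 1114450.0 (EtOH control) and 901641 to 1206770.0 (EtOH IMC), with 0 of 6 genes called for ethanol in control mice, for ethanol in IMC-treated mice or for IMC in ethanol-fed mice. Kupffer cell and macrophage markers (0 of 6 called in each of these comparisons) summed to 2730.3 to 3512 in EtOH control and 1552 to 4411 in Pair control. Sinusoidal endothelial markers had 1 of 6 called higher for ethanol in IMC-treated mice and 0 of 6 in the other 2 of these comparisons. Bile duct markers (5 genes) and the only lymphocyte marker tested were not called in them. No pancreas marker passed the filter. The intestinal list was led by Fabp2, which hepatocytes also express, summed to 1269 to 1409.7 (Pair control), 733 to 937 (Pair IMC), 1106 to 1241 (EtOH control) and 334 to 1439 (EtOH IMC), and 1 of its 3 genes tested was called lower in each of these 3 comparisons. For IMC in pair-fed mice, summed bile duct markers, led by Spp1 and Krt19, spanned 707 to 1207 (Pair control) and 610.1 to 693 (Pair IMC), with 597 to 844 (EtOH control) and 549.9 to 709 (EtOH IMC) in ethanol-fed mice, and 1 of 5 genes was called lower in pair-fed mice. This sum and that of the intestinal list were thus lower in every Pair IMC library than in every Pair control library. So was the low sum of lymphocyte markers, at 27.2 to 30.5 (Pair IMC) and 31.3 to 66.1 (Pair control), with its only gene tested not called. The comparison of these 2 groups also enters the averaged IMC effects of Etnk1, Cept1, Chpt1 and Pcyt2. For ethanol averaged over both treatments, 3 of 6 sinusoidal endothelial and 2 of 6 stellate cell markers were called higher, beside 12.9% of all genes. There 1 of 6 hepatocyte markers was called higher and 1 lower, 1 of 3 intestinal genes was lower, and 0 of 6 Kupffer cell and macrophage markers were called. The part of these markers in the values of the 9 genes was not tested.

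Pairs of members that carry out the same step were also set against each other as ratios of counts per kb within each library. The level of such a ratio depends on the exon lengths used, while its fold difference between groups does not. The ratio of Chka to Chkb averaged 0.228 ± 0.0441 for Pair control and 0.265 ± 0.0883 for Pair IMC mice, against 0.645 ± 0.309 for EtOH control and 0.421 ± 0.165 for EtOH IMC mice (SD, n = 4 each). All EtOH control libraries, at 0.363 to 0.979, were above all Pair control libraries, at 0.186 to 0.289 (exact permutation test, two-sided p = 0.0286, the smallest that 4 against 4 can give). Adjusted over the 16 tests of 4 ratios in 4 comparisons this was 0.183. The ratio of Chpt1 to Cept1 was likewise higher in each EtOH control library (0.608 to 0.771) than in each Pair control library (0.383 to 0.600), with the same exact p and adjusted p. The ratio of Pcyt2 to Pcyt1a, which sets the cytidylyl transferases of both routes side by side, averaged 10.8 ± 1.08 for Pair control and 9.60 ± 0.781 for Pair IMC, against 8.38 ± 1.07 for EtOH control and 7.29 ± 1.03 for EtOH IMC. The ratio of Etnk1 to Etnk2 was 0.126 ± 0.0412 for Pair control and 0.180 ± 0.0646 for Pair IMC, against 0.130 ± 0.0375 for EtOH control and 0.179 ± 0.00951 for EtOH IMC. None of the 16 ratio tests passed 0.05 after adjustment.

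**Figure D4:**
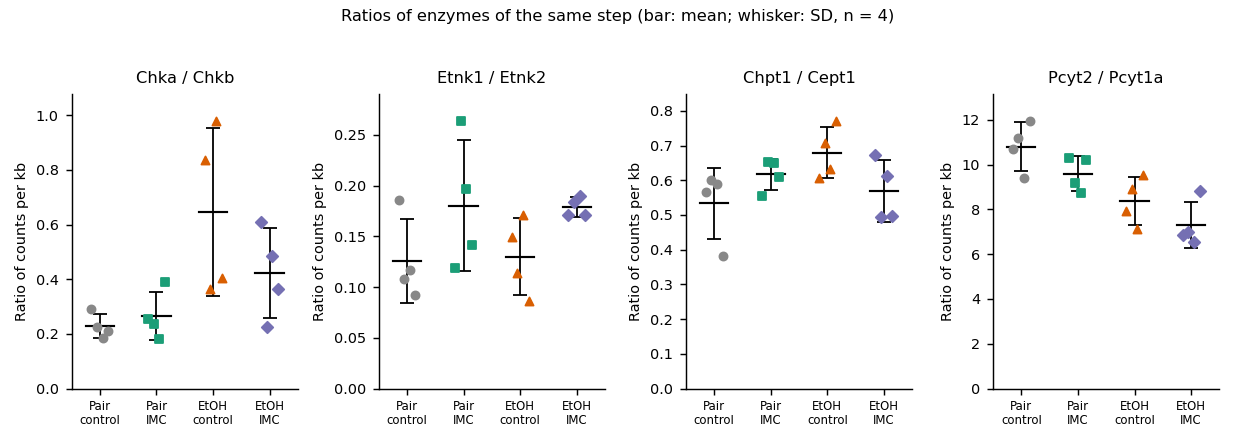
Ratios of counts per kb (y axis, from 0) for 4 pairs of genes in each library by group, with mean (bar) and SD (whisker, n = 4). The ratio of Chka to Chkb was at 0.363 to 0.979 in EtOH control and at 0.186 to 0.289 in Pair control, and that of Pcyt2 to Pcyt1a had its lowest mean, 7.29, in EtOH IMC.

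Across the 16 libraries Pcyt2 was low where Etnk1 was high. Pearson's r of their log2 values was -0.87 and Spearman's rho was -0.84 (100000 permutations, p = 2e-05 and 7e-05, and 0.00072 and 0.00252 when adjusted over the 36 pairs of members). These permutations ran across the groups, so differences between group means enter these p-values. Without the 2 libraries farthest from the median of Pcyt2 r was -0.77. Within groups, after subtraction of group means, r was -0.81 (permutation within groups, p = 0.00171, adjusted 0.0616). Without that subtraction r was -0.96 in libraries 9 to 16 and -0.40 in libraries 1 to 8. Libraries 9 to 16 hold the groups with the highest and lowest means of Pcyt2, 6358 in Pair control and 4375 in EtOH IMC. Libraries 1 to 8 hold Pair IMC and EtOH control, with means of 5574 and 5357. The 2 values of r therefore differ in the groups they span. The exons of Etnk1 sum to 14151 bases and those of Pcyt2 to 4346. Each library's trend with exon length and GC was removed in a step chosen after seeing the data. The IMC effects of Etnk1 and Pcyt2 in ethanol-fed mice were then 0.56 and -0.36 (limma adjusted p = 0.000106 and 0.0209). Their correlation was not computed again after this step, so the part of exon length and GC in it was not tested. No other pair of the 36 passed 0.05 after adjustment.

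**Figure D5:**
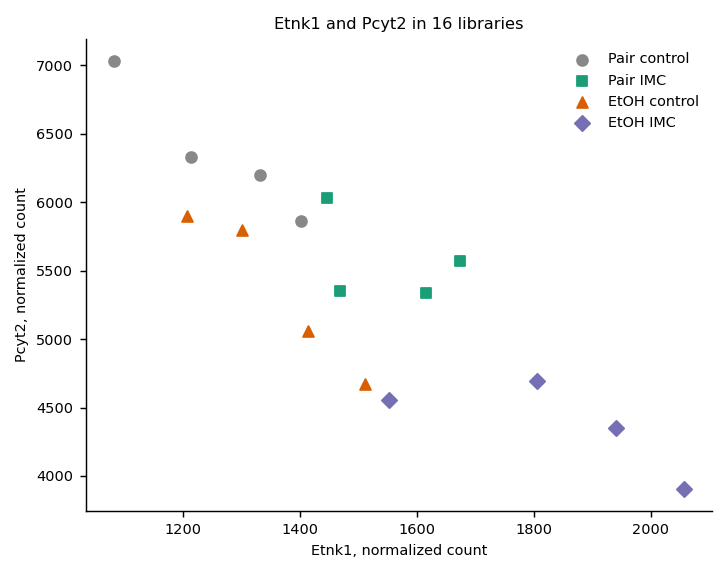
Normalized count of Pcyt2 (y axis) against that of Etnk1 (x axis), 1 point per library, coloured and shaped by group. Values ran from Pair control 16, with 1082 for Etnk1 and 7034 for Pcyt2, to EtOH IMC 9, with 2057 and 3904.

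For each member the genes whose log2 values were most like it over the 16 libraries were also listed, as a description with all libraries sharing the same groups and scaling. For Chka these were Loxl4 (r = 0.93) and Itsn1 (0.91), and for Chkb they were Akap1 (0.91) and Yipf4 (0.91). Pcyt2 was most like Iah1 (0.92) and Npc2 (0.92), Etnk1 was most like Sppl2a (0.92) and Ubxn2a (0.92), and Cept1 was most like Psmd5 (0.90) and Tmem5 (0.89). For Slc44a1 the genes were Mfsd4a (0.87) and Dld (0.86), for Chpt1 Rnf20 (0.82), for Etnk2 1810021B22Rik (0.81) and Blk (0.79), and for Pcyt1a Abl1 (0.79) and Wdfy2 (0.77). No member was listed for another member.

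Beside the 9 members, Pemt of the methylation route and Ept1 of the CDP-ethanolamine route were not called for IMC in ethanol-fed mice or for ethanol in control mice. Pemt, which methylates phosphatidylethanolamine to phosphatidylcholine, spanned 2347 to 4294 over all libraries and had log2 fold changes of -0.0043 (-0.27 to 0.26) for IMC in ethanol-fed mice and -0.18 (-0.44 to 0.080) for ethanol in control mice. Ept1, the ethanolamine phosphotransferase also named Selenoi, had -0.41 (-0.80 to -0.025, limma adjusted p = 0.118) and 0.29 (-0.093 to 0.68). Pcyt1b, a second choline cytidylyl transferase, did not pass the filter, with at most 11.9 in any library. Of the 6 other head-group enzymes tested, 1 was called higher and 0 lower for IMC in ethanol-fed mice (beside 21.5% of all genes), and 0 for ethanol in control mice (beside 11.9%). The called gene was Etnppl, which breaks down phosphoethanolamine, the product of the ethanolamine kinases and the substrate of Pcyt2. Etnppl rose from 1298 ± 192 in EtOH control to 2338 ± 333 in EtOH IMC (SD, n = 4), which is 0.85 on the log2 scale (0.44 to 1.26, limma adjusted p = 0.00531), and from 1213 ± 340.1 in Pair control to 2468 ± 698 in Pair IMC.

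Of the 4 other choline and ethanolamine transporters tested, 0 were called higher and 1 lower for IMC in ethanol-fed mice, and 0 for ethanol in control mice. Slc44a3, a relative of Slc44a1, fell by 0.54 on the log2 scale (limma adjusted p = 0.0207). Of the 11 genes of diacylglycerol supply tested, 0 were higher and 2 lower with IMC in ethanol-fed mice, and 3 were higher and 1 lower with ethanol in control mice. Over all genes 10.4% were higher and 11.1% lower in the first of these comparisons, and 6.33% and 5.54% in the second. Agpat2, which makes phosphatidic acid, rose by 0.61 with ethanol (limma adjusted p = 0.00362) and fell by 0.35 with IMC in ethanol-fed mice (limma adjusted p = 0.0412). Gpat2, a glycerol-phosphate acyltransferase of low level here, fell by 1.36 with IMC in ethanol-fed mice (limma adjusted p = 0.000591). Lpin2, which turns phosphatidic acid into diacylglycerol, fell by 0.80 with ethanol in control mice (limma adjusted p = 0.0428).

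Of the 19 genes of phospholipid remodelling and breakdown tested, 2 were higher and 2 lower with IMC in ethanol-fed mice, and 0 higher and 3 lower with ethanol in control mice. Gde1, a glycerophosphodiesterase, had the largest IMC rise among them at 0.89 (limma adjusted p = 0.000791) and Pld1, a phospholipase D that releases choline, the largest fall at -0.51 (limma adjusted p = 0.0133). For ethanol in control mice the called genes ran from Sgms2, a sphingomyelin synthase, at -0.40 (limma adjusted p = 0.0346) to Pnpla8, a mitochondrial phospholipase, at -0.30 (limma adjusted p = 0.0371). Of the 10 genes of choline oxidation and methyl supply, 0 were higher and 4 lower with IMC in ethanol-fed mice, and 2 were higher and 0 lower with ethanol in control mice. The shares called over all genes, beside this list and that of remodelling and breakdown, were 21.5% for IMC and 11.9% for ethanol. Bhmt, which passes a methyl group from betaine to homocysteine, spanned 59295 to 62012 in EtOH control and 7290.0 to 27899 in EtOH IMC, which is -2.10 on the log2 scale (-2.92 to -1.28, limma adjusted p = 0.00127). Its relative Bhmt2 fell by 0.52 with IMC in ethanol-fed mice (limma adjusted p = 0.00238) and rose by 0.44 with ethanol in control mice (limma adjusted p = 0.0119), and Sardh, of the same oxidation chain, rose by 0.39 with ethanol in control mice (limma adjusted p = 0.0224). The median log2 fold changes for IMC in ethanol-fed mice were 0.064 for the other head-group enzymes, -0.13 for transporters, -0.097 for diacylglycerol supply, 0.084 for remodelling and breakdown and -0.24 for choline oxidation, and for ethanol in control mice they were 0.0082, 0.12, 0.24, -0.16 and 0.21. Over all genes the medians of these comparisons were -0.0016 and -0.0072.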

How the data were processed

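The 16 liver RNA libraries were sequenced in the study with single 100 bp reads per its methods, while the labels state paired ends. The authors trimmed reads with Trim Galore, aligned them with STAR to mm10 and used UCSC transcripts. The counting tool was not given in the sources used here. The deposited values are a signal, read counts that the authors divided by a factor per library, and from the values these factors look to have been set within each diet. Every value was a whole number of reads within 0.01 (100% of values), so reads were recovered and divided by a median ratio over all 16 libraries. The sources name an upper quantile scaling, which was tried as an alternative.

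The 12537 genes that reached 10 in 4 or more libraries were tested on log2(value + 1) with limma 3.58.1 in R 4.3.3, with 1 mean per group, empirical Bayes shrinkage along a variance trend, and two-sided p-values adjusted by Benjamini and Hochberg over these genes (threshold 0.05). A fold change on this scale understates the change of low genes. Effects averaged over the other factor and the difference of the IMC effects were fitted in the same model. edgeR 4.0.16 (quasi-likelihood) and DESeq2 1.42.0 on whole reads, other scalings, other filters and leaving out each library were alternatives. On whole reads edgeR called 1412 genes higher and 1387 lower for IMC in ethanol-fed mice and 832 higher and 715 lower for ethanol in control mice, beside 1300 and 1393 and 794 and 694 with limma. In counts simulated for IMC in ethanol-fed mice over 12537 genes, limma recovered 77% of 200 genes changed by 1 on the log2 scale, with 10 false calls. Smaller changes, such as those called for the members, were not simulated, so the share of them that would be recovered is not known.

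Of 27212 rows, 430 identifiers were listed more than once with identical values, and each was kept once. The 24 pairs of replicates had a mean chi-square per gene between 5.60 and 44.0, so none was a repeat of another. The study describes each sample as a single mouse, so p-values measure the spread between mice. The 9 members and the lists were chosen with earlier results of these data known. Named are all members, the 2 genes most like each (for Chpt1, 1 of them is not reported here), the called genes with the largest and smallest fold change of each list, and Pemt, Pcyt1b and Ept1. Gene positions and exon lengths came from GENCODE vM21, and the promoter windows from RefSeq.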

Additional observations from a re-analysis of the deposited data

Results flagged for a closer look

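In 5 of the 36 groups of 4 values (9 genes in 4 groups) 1 library stood apart by Dixon's ratio of gap to range, past its 95% critical value. Chance flags about 1 in 20 groups. For Chkb, Pair IMC 2 was at 586 beside 629.7 to 631. For Chpt1, EtOH IMC 15 was at 1851 beside 2163 to 2223. For Cept1, Pair IMC 4 was at 1519 beside 1327 to 1336. For Slc44a1, Pair IMC 8 was at 1082 beside 682 to 746, and EtOH IMC 11 was at 725 beside 532 to 563.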

How the results depend on the processing

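No paired analysis was possible because the 4 groups share no replicate numbers. The number of the 9 members called moved by over 1.5 times in these cases. For IMC in pair-fed mice it was 0, and 1 with DESeq2 (Chpt1, beside 11.8% of all genes) and 2 after removal of the length and GC trend (Chpt1 and Etnk1, beside 11.1%), a setting chosen after seeing the data, as was edgeR without library 15. For ethanol in control mice it was 1 (Chkb), and 2 with edgeR (Chka and Chkb, beside 12.3%), 3 with DESeq2 (Chka, Chkb and Pcyt2, beside 14.4%) and 2 with quantile normalization (Chkb and Pcyt2, beside 12.3%). On the deposited scale it was 4, all higher (Chka, Pcyt1a, Chpt1 and Etnk1, beside 23.9%), and Chkb was not among them. For ethanol averaged over both treatments it was 2 (Chkb and Pcyt2), and 4 on the deposited scale (Chkb lower, and Chka, Pcyt1a and Etnk1 higher, beside 41.7%). Leaving out each library in turn gave 0 to 1 called for IMC in pair-fed mice, 2 to 3 in ethanol-fed mice and 3 to 4 averaged. It gave 1 to 2 for ethanol in control mice, 2 to 3 in IMC-treated mice and 2 to 3 averaged, and 0 for the difference. On the deposited scale 93.4% of calls for ethanol in control mice were higher beside 53.4%, 87.8% beside 47.8% in IMC-treated mice and 90.6% beside 49.6% averaged. Values of all genes stand 0.19 higher for ethanol on that scale. After removal of the length and GC trend the share of higher calls for IMC was 59.2% beside 45.5% in pair-fed mice, 58.8% beside 48.3% in ethanol-fed mice and 60.9% beside 50.1% averaged. With that trend removed, the median log2 fold change of all genes was 0.035 for IMC in pair-fed and 0.036 in ethanol-fed mice. Why these IMC values moved was not tested.

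Directions reversed for members that were not called. On the deposited scale this held for Slc44a1 for ethanol in control mice (0.18), Chpt1 for ethanol in IMC-treated mice (0.082) and Cept1 for averaged ethanol (0.10). With quantile normalization it held for Etnk2 for IMC in ethanol-fed mice (0.039), Slc44a1 for ethanol in control mice (0.015, and 0.017 with the upper quantile) and Pcyt2 for the difference (0.079). With the length and GC trend removed it held for Chkb for averaged IMC (0.024) and Chpt1 for ethanol in IMC-treated mice (0.018), and with edgeR without library 15 for Pcyt1a for the difference (0.018). Leaving out 1 library reversed the following ranges. For IMC in pair-fed mice, Chkb ran from -0.028 to 0.12 and Pcyt1a from -0.055 to 0.045. For IMC in ethanol-fed mice, Chkb ran from -0.098 to 0.023 and Etnk2 from -0.17 to 0.055. For averaged IMC, Chkb ran from -0.037 to 0.035 and Slc44a1 from -0.13 to 0.0015. For ethanol in control mice, Slc44a1 ran from -0.16 to 0.11 and Etnk2 from -0.089 to 0.15. For ethanol in IMC-treated mice, Chka ran from -0.049 to 0.33, Pcyt1a from -0.0019 to 0.13 and Cept1 from -0.061 to 0.086. For averaged ethanol Chpt1 ran from -0.030 to 0.066, and for the difference Pcyt1a ran from -0.13 to 0.0084 and Etnk2 from -0.042 to 0.28. The averaged IMC call of Chpt1 was also lost with no filter, the upper quantile, no variance trend and edgeR (adjusted p = 0.0643, 0.0641, 0.0729 and 0.0518).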

Other observations

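Within EtOH control, Chka was at 1622 and 1661 in libraries 1 and 5 and at 631 and 656 in libraries 3 and 7. In the same order Etnk1 was at 1414 and 1511 beside 1301 and 1207, and Slc44a1 was at 805 and 733 beside 692 and 626. Chpt1 was at 1729 and 1713 beside 2152 and 2262, Pcyt2 at 5061 and 4669 beside 5797 and 5902, and Etnk2 at 3047 and 2857 beside 3685 and 4524. Cept1 was at 1065 and 1013 beside 1140 and 1098. Chkb, at 494 and 432 beside 443 and 413, and Pcyt1a, at 1089 and 1118 beside 1109 and 1054, overlapped between the pairs of libraries. The pairs were set by the values of Chka, and the share of all genes that part in this way was not counted. With so few libraries a gene often parts in this way by chance, so the members listed here are a description only. The mean chi-square per gene, taken over all genes, was also lower within each pair of libraries than for any comparison across the pairs. The parting was therefore not limited to the members. These libraries carry the same label and were not compared as groups.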
